A study of Mus musculus with 4 samples.

Results

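Binding of the transcription factor TFCP2L1 in B16F0 cells, a mouse melanoma line, was mapped by ChIP-seq, the sequencing of immunoprecipitated chromatin, and the regions described here are those that lay far from gene boundaries. A region was any peak of the SX-682 list, or any DMSO peak that overlapped no SX-682 peak by at least 1 bp. It was called distal when no start or end of a RefSeq gene of any biotype lay inside it or within 2000 bp of it. Of 460 regions, 253 were distal (55.0%, 95% CI 50.4 to 59.5), and the other 207 served as the near regions for comparison. The cells had received 5 µM SX-682, an antagonist of CXCR1 and CXCR2, or the vehicle DMSO, for 24 h by the treatment label and overnight by the growth label. Chromatin fixed for 10 min in 1% formaldehyde was precipitated with 6 µg of anti-TFCP2L1 or of normal rabbit IgG. This gave 4 libraries, 1 per group, from 1 established line. The title of the SX-682 TFCP2L1 library spells the line B16F02L1, but its cell line label reads B16F0. The TFCP2L1 libraries held 32601907 (DMSO) and 28958646 (SX-682) tags after filtering, and their IgG controls 29584533 and 20270519. The SX-682 IgG library thus had 0.685 of the depth of its DMSO counterpart. No group had a replicate, so every test below compares regions within these libraries and none tests the treatment.

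TFCP2L1 belongs to the CP2 and grainyhead family of transcription factors, which bind DNA as dimers or tetramers at paired short elements. It is best known for sustaining the naive state of mouse embryonic stem cells and for roles in kidney and gland epithelia. In many mammalian cell types, a large share of the sites of sequence-specific factors lies in introns and between genes, where enhancers are found, and the gene that such a site acts on cannot be read from position alone.

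A gene boundary here was the outermost start or end of the gene, so a long gene could still hold an annotated transcription start in its interior. Such starts were looked up in the RefSeq promoter table of GRCm38.p6. Of the 247 distal regions on chromosomes covered by that table, 11 lay within 1000 bp of an internal start (4.45%, 95% CI 2.50 to 7.80), against 0.301% of all bases that were equally far from gene boundaries. The start itself lay inside 7 of them. The window upstream of the start overlapped the region for 9, and 6 of these windows are printed. They are those of the 4 regions in both lists, of Creb5, which had the most fragments among those in the SX-682 list alone, and of the one in the DMSO list alone. Each gives the 250 bases before the start, 5′ to 3′ in the direction of transcription, with the bases inside the called region in capitals.
Tcf12, chr9:71896097-71896346, minus strand: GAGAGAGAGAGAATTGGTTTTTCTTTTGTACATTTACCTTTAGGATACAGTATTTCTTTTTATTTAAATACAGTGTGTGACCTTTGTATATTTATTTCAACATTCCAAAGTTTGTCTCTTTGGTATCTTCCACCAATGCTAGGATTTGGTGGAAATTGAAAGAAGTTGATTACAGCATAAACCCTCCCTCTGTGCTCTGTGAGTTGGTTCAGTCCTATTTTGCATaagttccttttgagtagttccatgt
Srpk2, chr5:23616572-23616821, minus strand: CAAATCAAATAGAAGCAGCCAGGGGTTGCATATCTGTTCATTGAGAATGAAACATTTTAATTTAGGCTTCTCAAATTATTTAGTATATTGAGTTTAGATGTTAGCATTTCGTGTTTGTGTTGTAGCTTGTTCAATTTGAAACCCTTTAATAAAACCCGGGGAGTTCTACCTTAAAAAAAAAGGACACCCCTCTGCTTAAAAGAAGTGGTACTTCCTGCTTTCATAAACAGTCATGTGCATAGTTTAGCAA
Fam71f1, chr6:29318890-29319139, plus strand: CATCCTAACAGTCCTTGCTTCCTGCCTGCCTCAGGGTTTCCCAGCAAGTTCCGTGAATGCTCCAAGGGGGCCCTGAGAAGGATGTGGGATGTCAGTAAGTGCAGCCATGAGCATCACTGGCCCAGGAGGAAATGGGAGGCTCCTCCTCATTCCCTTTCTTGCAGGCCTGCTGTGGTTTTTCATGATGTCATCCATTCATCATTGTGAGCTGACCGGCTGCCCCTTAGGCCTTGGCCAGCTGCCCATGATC
Creb5, chr6:53573124-53573373, plus strand: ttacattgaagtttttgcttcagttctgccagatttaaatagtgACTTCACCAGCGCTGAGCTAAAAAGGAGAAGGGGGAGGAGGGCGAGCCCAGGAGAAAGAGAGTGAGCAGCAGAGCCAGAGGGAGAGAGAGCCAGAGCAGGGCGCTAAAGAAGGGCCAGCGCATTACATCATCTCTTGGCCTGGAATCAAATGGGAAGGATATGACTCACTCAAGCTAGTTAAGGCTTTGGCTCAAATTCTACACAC
Rbpj, chr5:53590096-53590345, plus strand: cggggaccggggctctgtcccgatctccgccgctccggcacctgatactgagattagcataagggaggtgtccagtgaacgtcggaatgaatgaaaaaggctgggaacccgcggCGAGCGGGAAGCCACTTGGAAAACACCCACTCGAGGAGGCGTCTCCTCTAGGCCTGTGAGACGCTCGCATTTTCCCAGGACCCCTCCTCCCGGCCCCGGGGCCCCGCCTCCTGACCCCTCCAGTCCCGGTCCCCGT
Dab2, chr15:6386498-6386747, plus strand: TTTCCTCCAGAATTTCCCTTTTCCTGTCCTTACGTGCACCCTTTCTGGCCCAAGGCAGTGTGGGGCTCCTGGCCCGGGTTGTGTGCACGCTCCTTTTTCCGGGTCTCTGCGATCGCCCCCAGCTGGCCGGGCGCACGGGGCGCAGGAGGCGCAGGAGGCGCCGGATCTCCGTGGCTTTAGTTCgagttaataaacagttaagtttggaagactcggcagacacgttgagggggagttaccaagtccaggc

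The printed windows differed widely in composition. The Tcf12 and Srpk2 windows each held 34.8% G or C, with 0 and 2 CpG dinucleotides. The Rbpj window, upstream of the first of its pair of starts, held 65.2% with 21 CpG and the Dab2 window 60.0% with 17, against medians of 52.4% and 6 over 32817 such windows. Tcf12 encodes a basic helix-loop-helix factor, Srpk2 a kinase of splicing factors, Creb5 a leucine zipper factor, Rbpj the DNA-binding effector of Notch signalling and Dab2 an endocytic adaptor. The TFCP2L1 motif, a pair of CCAG elements 6 bases apart, was searched on both strands. It was found in 0 of the 10 windows that overlapped a distal region and in 2.79% of all windows. So few windows cannot tell 0 from 2.79%, and bases of the regions outside the windows were not searched. A relaxed CP2 pattern, in which each element may read CNAG or CNGG with the same spacing, matched 4 of the 10. These were at Ptpn3, at both starts of Rbpj, whose windows share bases and the match, and at Osbpl5. It also matched 48.0% of all windows.

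The fragments counted at these internal starts were as follows. At Tcf12 the summit held 21 fragments in the DMSO library and 56 in the SX-682 library. At Srpk2 it held 18 and 34, at Fam71f1 51 and 64, and at Tnrc6b 23 and 37. Arid1a, which encodes a subunit of the SWI/SNF chromatin remodelling complex, had nearly the same number in both libraries, 28 in DMSO and 29 in SX-682. Rbpj had more in DMSO (25) than in SX-682 (20). Creb5 (38 fragments), Ctnnd1, which encodes p120-catenin (26), Osbpl5 (23) and Ptpn3 (16) were called in the SX-682 list alone, and Dab2 (21) in the DMSO list alone. Of the 11 regions, 6 were therefore in both lists. The share in both lists over all 460 regions was 26.7%.

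**Figure D1:**
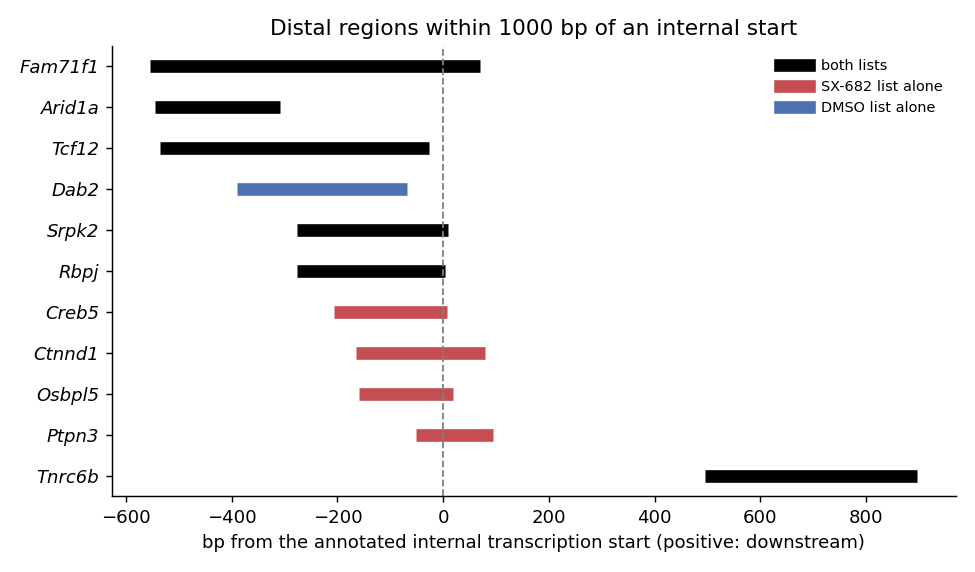
Position of the 11 distal regions within 1000 bp of an annotated internal transcription start, in bp along the direction of transcription, with the start at 0 and 1 bar per region from its first to its last base. Regions called in both lists are black, those in the SX-682 list alone red and the one in the DMSO list alone blue. The bars of Arid1a, Tcf12 and Dab2 end upstream of the start, that of Tnrc6b lies 496 to 897 bp downstream, and the other 7 cross it. For Rbpj, which has a pair of starts in the region, the downstream one is used.

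The distal regions were first described by where they lay. Of the 253, 159 were inside an annotated gene (62.8%, 95% CI 56.7 to 68.6) and 94 between genes. Of all bases more than 2000 bp from any gene boundary, 47.3% are inside a gene. Every base between the outermost genes of a chromosome was counted. Sequence where no peak can be called was not taken out. This limit also holds for the other values over bases, those for internal starts, distances and host lengths. In the SX-682 list 154 of 245 distal regions were inside a gene (62.9%), and in the DMSO list 43 of 63 (68.3%). The longest gene around the region was protein-coding for 135 of the 159 and a long non-coding RNA (lncRNA) gene for 24. The table gives no exons, so introns and exons were not told apart. Distances to the nearest gene boundary ran from 2003 to 171882 bp with a median of 9451 bp, and the median over all equally far bases is 21552 bp. The limit of 2000 bp fixes the lower end of these distances. Just inside it were the region in Ptpn3, at 2003 bp from Gm12536, with 16 fragments in SX-682, and one at chr16:90709595-90710011, at 2012 bp from Gm46569, with 46. Just outside it were chr10:127937530-127937915 in Gm40805, at 1989 bp, with 32 fragments, and a region in 2010320O07Rik, at 1960 bp, with 13. All 4 were in the SX-682 list alone, as were 320 of all 460 regions.

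Counted once per region, the host of a distal region had a median length of 95772 bp (quartiles 36602 and 218356), and 78 of the 159 regions inside genes lay in a host of over 100 kb. For bases inside genes at the same distance from boundaries, the median host is longer, 136949 bp. The longest hosts were Prkg1, a cGMP-dependent protein kinase (1200782 bp), Asic2, an acid-sensing ion channel (1088234 bp), Sox5, an HMG-box factor (953863 bp), Zbtb20, a zinc finger repressor (758704 bp), and Arhgap15 (647156 bp). Of 113 regions that could be placed by strand in a protein-coding host, 32 fell in the first 25% of the gene, 38 between 25% and 50%, 22 between 50% and 75% and 21 beyond. Regions were thus found over the whole length of the hosts, as the plot of position against host length shows.

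**Figure D2:**
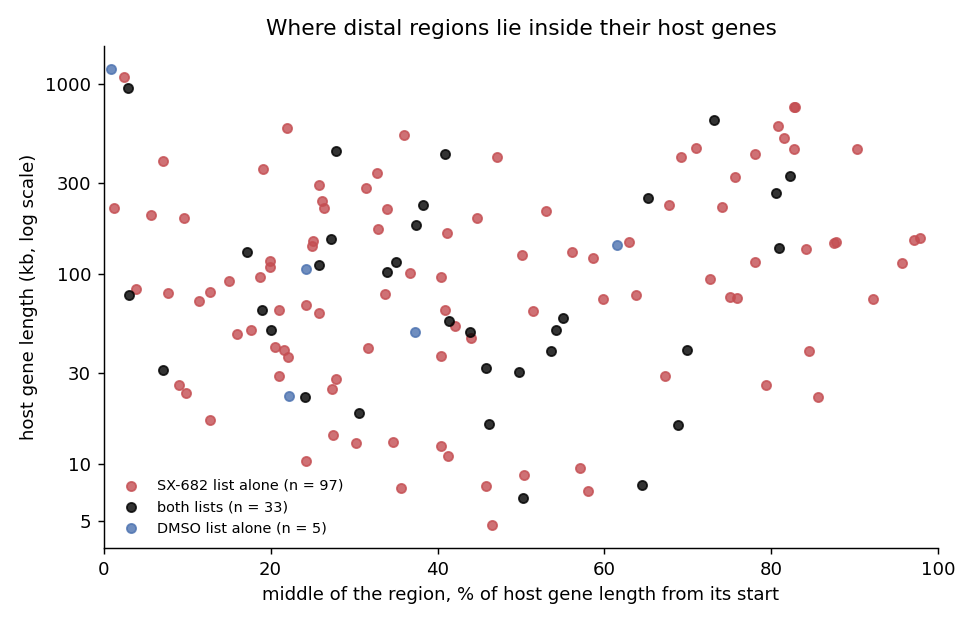
Middle of each of 135 distal regions as a percentage of the length of its host gene from the gene's start (x), against host length in kb on a log scale (y), for hosts whose strand was known, lncRNA hosts included. Points are coloured by list, with 97 in the SX-682 list alone, 33 in both and 5 in the DMSO list alone. The points spread over the gene body, and the longest hosts, Prkg1, Asic2 and Sox5, carry theirs near the start of the gene, at 0.870%, 2.41% and 2.93%, while the regions in Zbtb20 lie at 82.7% and 82.8% and that in Arhgap15 at 73.2%.

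The strongest distal region lay in the lncRNA gene Gm36897 at chr6:136468390-136468942, 2466 bp from its nearer end, with 96 fragments at its summit in DMSO and 121 in SX-682. It held 2.94 and 4.18 fragments per 1000000 filtered tags, and no other distal region exceeded 2.38 in either library. The next by SX-682 fold enrichment, in the zinc finger gene Zfp607b at chr7:27688981-27689529, held 48 and 68 fragments. Another lay between genes at chr1:86487329-86487736, 13309 bp from the pseudogene Rpl30-ps6 and 38821 bp from the coding gene Ptma, with 53 and 60. These 3 were high in both libraries. Their fold enrichment over IgG, the authors' ratio of scaled coverage to local IgG background with a pseudocount of 1, was 25.5, 14.6 and 16.1 in DMSO and 32.5, 23.2 and 19.8 in SX-682.

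Regions further down the ranking differed in how far the libraries lay apart. A region between genes at chr2:72689175-72689636, with Cdca7 at 202283 bp and Sp3 at 246794 bp as its nearest coding genes, had a summit of 23 DMSO and 57 SX-682 fragments. A region in the lncRNA gene Gm29230 at chr3:51073996-51074361 held 23 and 45. By fragments the libraries lay closer in Gm46648 at chr19:26845180-26845893, with 47 and 52. So they did in Srcin1, which encodes an inhibitor of SRC kinase, with 41 and 48 (chr11:97568649-97569049). The fold enrichment in Gm46648 and Srcin1 was 10.9 and 9.55 in DMSO and 17.8 and 16.5 in SX-682. Among the 10 strongest by SX-682 fold enrichment, 3 had no DMSO peak. These were in Asic2 at chr11:81941983-81942389 (47 fragments), in the kinase gene Alpk2 (47) and at chr16:90709595-90710011 (46). All 3 stood at the lowest IgG background the caller could use. So did the SX-682 peaks in Zfp607b, Gm46648, Srcin1 and Gm29230, and a low background raises fold enrichment. The next strongest by fold enrichment in the SX-682 list alone was in Ephx1, an epoxide hydrolase gene (41 fragments, chr1:181009548-181010021). After it came chr5:118459100-118459410, where the nearest coding gene was Med13l at 100920 bp (42). By fragments the order differed, as a region in Shc4, also in that list alone, held 57 at a fold enrichment of 13.6. Coverage below a called peak is not in the lists, so the DMSO level at these places is not known. In DMSO the 5 strongest also included Tjp3, the tight junction protein gene (42 DMSO and 36 SX-682 fragments), and Afap1, the actin filament adaptor gene (32 and 42).

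**Figure D3:**
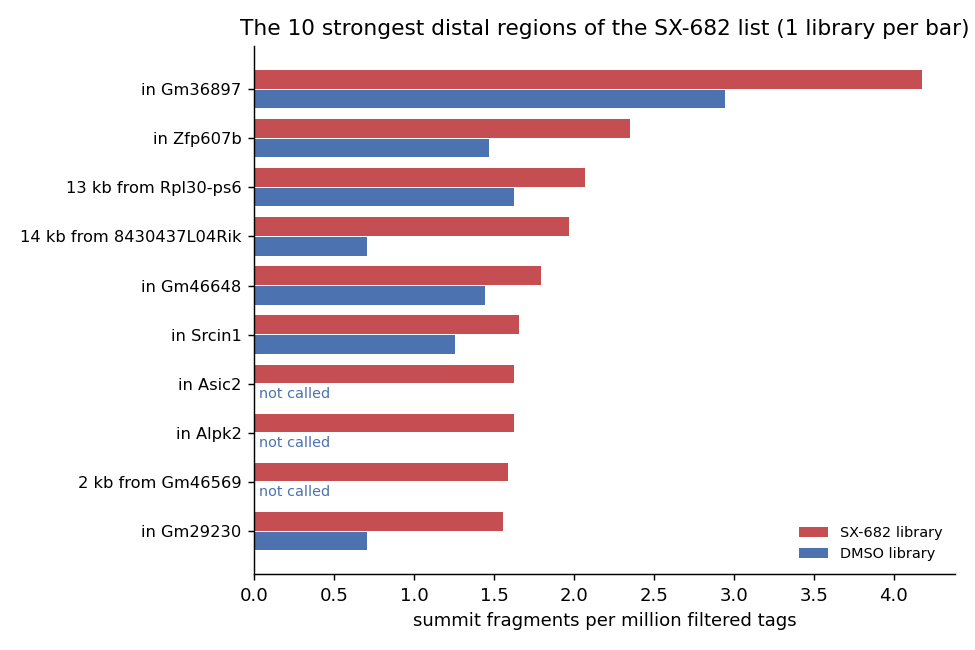
The 10 distal regions with the highest fold enrichment in the SX-682 list (rows) and their summit fragments per 1000000 filtered tags (x, from 0), with 1 library per bar, red for SX-682 and blue for DMSO. The top row, in Gm36897, reaches 4.18 and 2.94. The 7 regions called in both lists are each higher in SX-682, against 91.9% of all regions in both lists. The other 3 were not called in DMSO. Rows were chosen by their SX-682 value, which favours both outcomes.

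Strength was then compared across distance. In the SX-682 list, the median fold enrichment of distal regions was 7.73 (quartiles 6.40 and 9.49, n = 245) and that of near regions 7.49 (n = 198), a difference of 0.242 (permutation p = 0.596, adjusted p = 0.681). In the DMSO list the medians were 7.13 (n = 63) and 7.31 (n = 77), a difference of -0.181 (permutation p = 0.444, adjusted p = 0.592). Both differences changed sign under another measure of strength and neither was past the threshold. Peak length had medians of 263 and 263.5 bp in the SX-682 list (permutation p = 0.997, adjusted p = 0.997). Among distal regions of the SX-682 list, median fold enrichment was 7.82 at 2000 to 5000 bp from a boundary (n = 72), 7.89 up to 20000 bp (n = 106), 7.16 up to 50000 bp (n = 49) and 8.14 beyond (n = 18). Regions inside genes had a median of 7.82 (n = 154) and those between genes 7.56 (n = 91), a difference of 0.259 (permutation p = 0.386, adjusted p = 0.592).

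The regions farthest from any boundary were taken next. Inside genes, the one farthest from a boundary was in Fstl4, a follistatin-related gene, at 171882 bp (24 fragments in DMSO and 31 in SX-682). Regions in Ccdc148 at 110832 bp (30 fragments, SX-682 alone), in the GTPase-activating gene Arhgap15 at 104888 bp (21 and 40), in the cell adhesion gene Cadm1 at 102381 bp (20, SX-682 alone) and in Ehbp1 at 88378 bp (20, SX-682 alone) followed. Between genes, the farthest was a chromosome 18 region at 73967 bp from the pseudogene Gm7874 (19 fragments, SX-682 alone). A region at chr14:100361489-100361728, 55631 bp from Gm34199 and 75598 bp from Klf12, had 21 fragments in the SX-682 list alone. Next came chr4:110028825-110029086, at 45134 bp from Dmrta2 (24, SX-682 alone), and chr3:33188265-33188534, at 44963 bp from Pex5l (19, DMSO alone). The fifth was chr16:76866002-76866356, at 44226 bp from LOC102632931, which had 22 fragments in DMSO and 21 in SX-682.

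**Figure D4:**
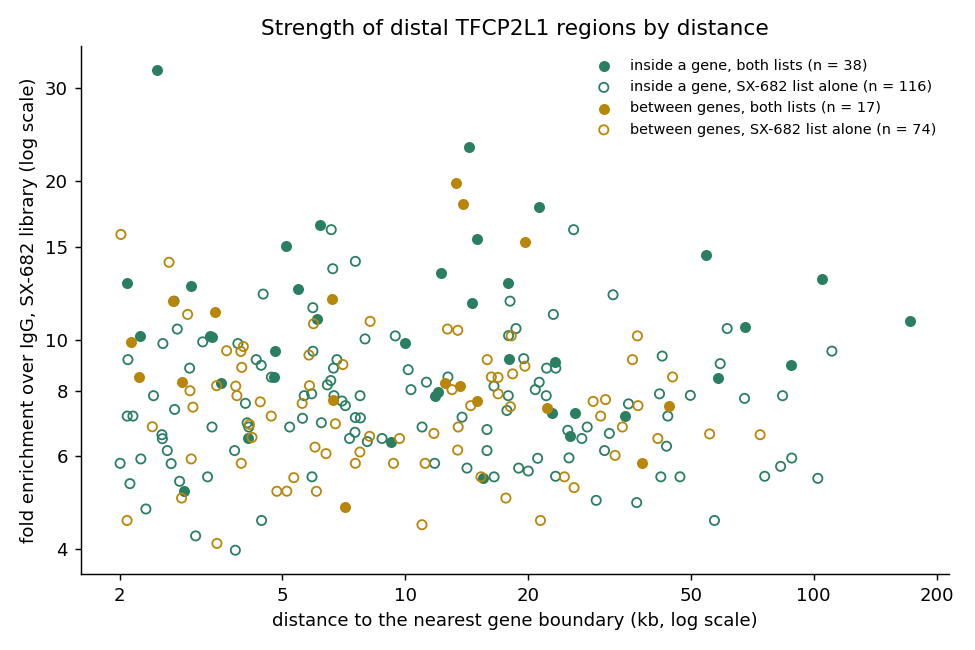
Fold enrichment over IgG in the SX-682 library (y, log scale) against distance to the nearest gene boundary in kb (x, log scale) for the 245 distal regions of the SX-682 list, 1 point per region. Green points are inside genes and ochre points between genes, filled when the region was also in the DMSO list. The points spread from 3.98 to 32.5 and the filled points have a median of 9.86 against 7.35 for the open ones. Near regions in both lists, which are not drawn, have a median of 9.98.

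The next comparison asked in which list each distal region was called. Of the 253, 55 were in both lists (21.7%, 95% CI 17.1 to 27.2), 190 in the SX-682 list alone and 8 in the DMSO list alone. Near regions were in both lists more often, 68 of 207 (32.9%, 95% CI 26.8 to 39.5). The shares differed by -11.1 points (Fisher's exact p = 0.00818, adjusted p = 0.0371). The background over all 460 regions was 26.7%. Read from the DMSO list alone the contrast was smaller and missed the threshold, since 55 of its 63 distal and 68 of its 77 near peaks had an SX-682 partner, a difference of -1.01 points (Fisher's exact p = 1). With 5000 bp as the limit the difference was -7.65 points (exact p = 0.0832). Inside genes 38 of 159 distal regions were in both lists (23.9%) and between genes 17 of 94 (18.1%), a difference of 5.81 points (Fisher's exact p = 0.344, adjusted p = 0.592). With distance the share in both lists was 21.1%, 22.2%, 18.0% and 31.6% in the 4 distance classes given above, with 19 regions in the last.

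The 8 distal regions of the DMSO list alone had 17 to 28 fragments at the summit and a fold enrichment of 5.35 to 8.76. Of these, 5 lay inside genes. They were in Pisd, the phosphatidylserine decarboxylase gene (28 fragments, chr5:32767123-32767314), in 4930470P17Rik (25, chr2:170596852-170597150) and in Prkg1 (24, chr19:31754716-31754921). The other two were the one upstream of the internal Dab2 start (21) and one in the collagen gene Col15a1 (17, chr4:47233027-47233318). The 3 between genes were nearest to Rinl at 3380 bp (24 fragments), Zhx1 at 2016 bp (22) and Pex5l (19).

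At the 55 distal regions called in both lists, the SX-682 library held more fragments per filtered tag in 51 (92.7%, 95% CI 82.7 to 97.1), against 91.9% of all regions in both lists. Their log2 ratio (SX-682 over DMSO) had a median of 0.57 (95% interval of the median 0.50 to 0.71). The interval covers the spread over regions of 1 library per treatment and not variation between libraries. In 27 the SX-682 value was over 1.5-fold higher (49.1%), against 41.5% of all regions in both lists. In 15 it was over 2-fold higher (27.3%), against 11 of 68 near regions in both lists (16.2%). Near regions had a median log2 ratio of 0.43 (n = 68). The difference of 0.15 missed the threshold of the permutation test (p = 0.0577, adjusted p = 0.154). By fold enrichment, 40 of the 55 were higher in SX-682 (72.7%). The median log2 ratio of fold enrichment was 0.48 at these 55 and 0.26 at near regions in both lists. The summits of the pairs lay a median of 43 bp apart and at most 206 bp, and 43 of 55 were longer in SX-682. Their median peak length was 366 bp in SX-682 and 247 bp in DMSO. At near regions in both lists it was 339.5 and 267 bp.

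**Figure D5:**
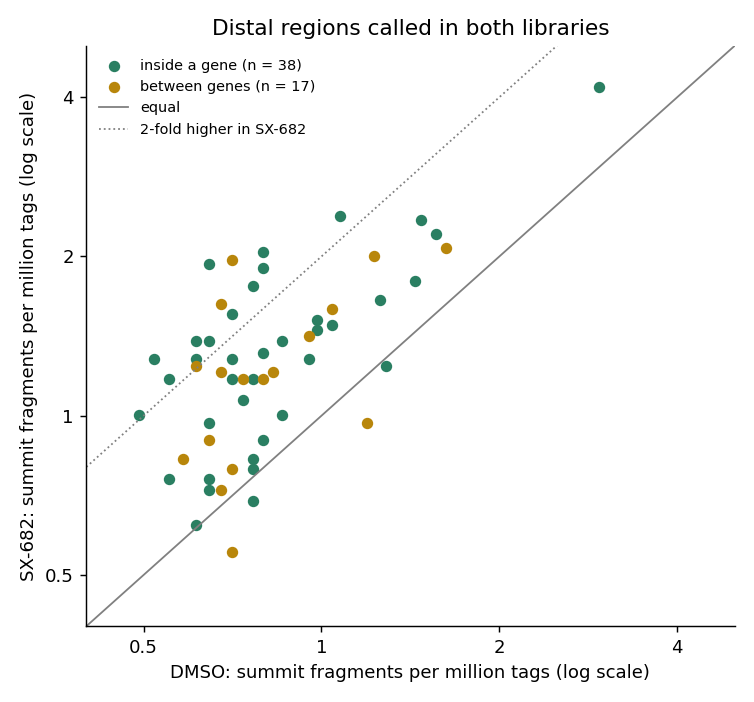
Summit fragments per 1000000 filtered tags in the DMSO library (x) and the SX-682 library (y), both on log scales, for the 55 distal regions in both lists, 38 inside genes (green) and 17 between genes (ochre), with 1 library per axis. The solid line marks equal values and the dotted line a 2-fold higher SX-682 value. 51 points lie above the solid line and 15 above the dotted one. Of the 68 near regions in both lists, which are not drawn, 62 and 11 would.

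The distal regions with the highest ratio of SX-682 to DMSO were, after the internal start of Tcf12 with a log2 ratio of 1.59, the intergenic site on chromosome 2 (1.48) and those in Iqsec1 and Dok7. Iqsec1, which encodes an activator of ARF GTPases, had 26 fragments in DMSO and 59 in SX-682 (log2 ratio 1.35). Dok7, an adaptor of the neuromuscular junction, had 17 and 37 (1.29). At the other end, 4 regions had fewer fragments per tag in SX-682. These were a region 37904 bp from Mylk4 (23 and 16 fragments, log2 ratio -0.35) and one at chr2:116189594-116189781, with Meis2 as its nearest coding gene at 122057 bp (39 and 28, -0.31). Rbpj (-0.15) and Tjp3 (-0.05) were the others.

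The IgG background used for the distal peaks was low, with a median of 1.23 fragments in the SX-682 list and 2.04 in the DMSO list. It was recovered from the deposited coverage and fold enrichment, and every value matched 1 of the 4 sources MACS2 uses. In the SX-682 list, 93 of 245 distal peaks stood at the lowest background the caller could use (38.0%, 95% CI 32.1 to 44.2), and 100 of 198 near peaks did (50.5%). The difference was -12.5 points (Fisher's exact p = 0.00928, adjusted p = 0.0371). With 1000 bp as the limit it was -8.28 points (exact p = 0.0928). For 64 distal peaks (26.1%) the background came from the IgG fragments that lay at the summit itself, for 56 from the 1000 bp around it and for 32 from the surrounding 10000 bp. Near peaks took theirs from the summit in 36 of 198 (18.2%). In the DMSO list, with its deeper IgG library, 20.6% of 63 distal peaks and 36.4% of 77 near peaks stood within 1% of the lowest value (Fisher's exact p = 0.0613).

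Gene lists for the biology the study addressed were then compared with the distal regions. Among 20665 protein-coding genes, 800 lay within 100000 bp of a distal region or contained one (3.87%). Lists were counted over their members in the gene table of chromosomes 1 to 19. None of 15 pluripotency genes did, among them Tfcp2l1, Klf4, Esrrb, Nanog, Pou5f1 and Sox2. Nor did any of the 6 CP2 and grainyhead family genes, of 11 chemokine signalling genes, Cxcr1 and Cxcr2 included, or of 33 very long genes and fragile-site genes such as Fhit, Wwox and Lrp1b. Of 17 melanocyte and neural crest genes, Sox10 was the one within this range. Of 25 genes of the RAS and MAPK cascade, 4 were, and of 27 genes of β-catenin independent Wnt signalling, 3 were. No list was tested.

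Sox10, which encodes the HMG-box factor that specifies neural crest and melanocyte fate, had 3 distal regions nearby. All lay outside Sox10, in the lncRNA gene Gm10863, which held more distal regions than any other host gene. The first, at chr15:79174838-79175038, was 10348 bp from the nearer boundary of Sox10 and was in the SX-682 list alone, with 18 fragments. The next, at chr15:79176030-79176323 and 11540 bp away, had 35 DMSO and 69 SX-682 fragments. The last, at chr15:79193155-79193531 and 28665 bp away, held 28 and 40. The regions 11540 and 28665 bp away also carried IgG signal, with 4 and 3 IgG fragments at their summits in the SX-682 pair, and their fold enrichment was 10.9 and 6.60 in DMSO and 9.86 and 7.25 in SX-682. Their fold enrichment was thus close in the libraries although the fragments were not.

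In the RAS and MAPK cascade, Dusp6, the phosphatase that switches off ERK, had a distal region 21670 bp away in both lists (22 fragments in DMSO and 35 in SX-682, chr10:99241243-99241561). The others were in the SX-682 list alone. Map2k2, which encodes the kinase MEK2, was 12613 bp from a region in Zbtb7a (20 fragments). Braf was 62842 bp from a region in Dennd2a (24), and Rasgrf1, a RAS exchange factor, 87685 bp from an intergenic region (20). In the Wnt list, Prkca, the protein kinase C alpha gene, contained a region at chr11:108150419-108150754 (25 fragments). Vangl2, a planar polarity gene, lay 21277 bp from a region (22) and Fzd3, a Wnt receptor gene, 81300 bp from one (21). Other genes were nearer to both regions, Nhlh1 at 3458 bp and Zfp395 at 14462 bp. The region near Vangl2 was weak, with 3 IgG fragments at its summit in the SX-682 pair. Its −log10 q-value from the Poisson test was 2.53, against a median of 8.99 over the distal SX-682 peaks. All 3 regions of the Wnt list were also in the SX-682 list alone. So were 190 of all 253 distal regions (75.1%) and 320 of all 460 regions. Rab27a, whose product ties melanosomes to the actin cytoskeleton, was on no list and was named after its values were seen. It held a region at chr9:73066948-73067170 with 22 fragments in SX-682 alone.

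Hosts of known function were grouped after they had been seen, so the groups describe and test nothing. Their counts in both lists are to be read beside the share of 23.9% over all 159 distal regions inside genes and of 26.7% over all 460 regions. DNA-binding factors made up 16 hosts with 18 distal regions, of which 4 were in both lists and 14 in the SX-682 list alone, with SX-682 fold enrichments of 4.77 to 23.2. Beyond Zfp607b and Tcf12, Sox5 (20 DMSO and 40 SX-682 fragments) and Rbpj were in both lists. Nfia, a nuclear factor I gene (44 fragments), Nfib (24), the Hedgehog effector Gli1 (19) and the E-protein gene Tcf4 (18) were in SX-682 alone. Zfp536 held a pair of regions, at chr7:37362190-37362514 (35 fragments) and chr7:37396913-37397153 (15), and Zbtb20 held a pair 656 bp apart, at chr16:43503210-43503464 (16) and chr16:43504121-43504398 (22). All 4 were in the SX-682 list alone.

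Small GTPases and their regulators made up 16 hosts with 16 regions, 6 in both lists and 10 in the SX-682 list alone. In both lists were Rgl1, an exchange factor for RAL (25 fragments in DMSO and 51 in SX-682), Arhgap15 and Iqsec1. The exchange factor gene Arhgef10l (31 and 37), Agap1 (25 and 34) and Rab36 (20 and 18) completed them. Adhesion, matrix and guidance genes made up 10 hosts with 3 regions in both lists, in Tjp3, Nrp2 (25 and 23) and Col4a2 (21 and 21). Of the rest, 6 were in SX-682 alone, among them Itga5, a fibronectin receptor subunit (31 fragments), and Tln2, a talin gene (30). Signalling adaptors, kinases and phosphodiesterases made up 12 hosts, 4 of them in both lists. Irak2, a kinase of interleukin-1 signalling, had 26 and 55 fragments, and Shc4, an SHC adaptor gene, had 57 in SX-682 alone. Gramd1b also held a pair of regions, of which chr9:40346204-40346605 was in both lists (21 and 28 fragments) and chr9:40321451-40321672 in SX-682 alone (16).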

How the data were processed

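Per the labels, the authors used cutadapt 4.1, Bowtie2 2.4.1 and MACS2 2.2.7.1 on build mm10. Per the file headers, duplicates and mitochondrial reads were removed and peaks were called in each TFCP2L1 library, with the IgG library of that treatment as control, at a q-value of 0.01, with fragments of 146 bp. The genome size given was the human preset. It enters the lowest background the caller can use. A larger size lowers that background and raises the fold enrichment of peaks that stand at it. No other size was tried. The deposited signal is coverage at the summit, scaled to the smaller library. The deposited fold enrichment is its ratio to local IgG background. The deposited −log10 p-value and −log10 q-value come from a Poisson test.

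Summit fragments were recovered by undoing the scaling (0.907 for DMSO and 0.700 for SX-682) and came out within 0.00551 of a whole number. Background at the floor was within 1% of it, and recovered IgG counts were within 0.0003 fragments. Gene positions and promoter windows came from RefSeq GRCm38.p6, which has the coordinates of mm10. Chromosomes 1 to 19 held every peak. The promoter table used here had no window on chromosome 18. Shares carry 95% Wilson intervals for counting error alone. The interval of the median log2 ratio covers the spread over regions alone. Counts of regions entered two-sided Fisher's exact tests and medians two-sided permutation tests of 100000 resamples (20000 for alternatives). The 8 tests form a family with Benjamini-Hochberg adjusted values (scipy 1.17.1), and functions were tested on simulated data. Tests treat regions as independent, although they share a library. Named regions were the strongest per list, the farthest, those in the longest or repeatedly hit hosts, those in listed genes, every region in DMSO alone and those nearest to the limit. Regions at internal starts, the largest and smallest ratios and the host groups were added after their values were seen. Members and lists were chosen with earlier results of these data known.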

Additional observations from a re-analysis of the deposited data

How the results depend on the processing

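Of 64 alternative values of 11 results, 52 kept their direction and side of the threshold, or their size. Of these alternatives, 18 were chosen after seeing the data. The number of distal regions ran from 177 with a 5000 bp limit to 298 with protein-coding genes only. The difference in the share found in both lists was -7.65 points at 5000 bp (exact p = 0.0832) and -1.01 within the DMSO list, and -16.9 with protein-coding genes only. The difference in peaks at the lowest background was -8.28 points at 1000 bp (exact p = 0.0928) and -15.7 in the DMSO list (exact p = 0.0613). Differences that had not passed the threshold changed sign. Fold enrichment without the pseudocount differed by -0.187 in the SX-682 list, and fragments per 1000000 filtered tags by 0.0307 in the DMSO list. Peak length differed by 8 bp at 1000 bp, 6 bp at 5000 bp, 3.5 bp at −log10 q of at least 5 and 5.5 bp with internal starts added to the boundaries. The share inside a gene was 49.7% with protein-coding genes only, which removes hosts by construction. The log2 ratio at regions in both lists was 0.48 by fold enrichment. The cause was not tested. Adding internal starts to the boundaries left 231 distal regions. Motif, repeat and GC alternatives over whole regions were left out for want of a genome sequence. No paired analysis was possible because a single library stood for every group, and for that reason no library could be left out. The weakest distal summit called had 16 DMSO or 14 SX-682 fragments, and a place with no called peak has no value in the lists.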

Other observations

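Distal regions were spread over chromosomes 1 to 19 unevenly. Per 100 Mb of sequence more than 2000 bp from gene boundaries, chromosome 6 held 19.6 (26 regions), chromosome 15 held 19.4 (18) and chromosome 7 held 18.1 (22). Chromosome 3 held 5.52 (8) and chromosome 12 held 5.59 (6). With near regions included, chromosomes 6, 15 and 7 held 38, 31 and 37 regions, and chromosomes 3 and 12 held 20 and 11. The unevenness was not tested as a trait of distal regions. Copy number of these chromosomes in B16F0 was not measured here, and its part in the counts was not tested. Most distal regions stood alone, with a median gap of 4696432 bp to the next, and 12 of 234 gaps were under 100000 bp. Beyond the pairs in Zbtb20, Gm10863, Gramd1b and Zfp536, the closest were 8821 bp apart, a region in Hexim2 and one beside it at chr11:103142042-103142540.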
